A study of Mus musculus with 47 samples.

Results

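Semaphorins, plexins and neuropilins were followed through the differentiation of mouse embryonic stem (ES) cells into ventral neural progenitors, in wild-type (WT) cells, in cells without Foxa2 and, in a small arm, in cells without Nkx2.2. All genes of the 3 families listed by symbol were taken, which gave 31 members, namely 20 semaphorins, 9 plexins and 2 neuropilins, of the 38347 genes in each of the tables of the Foxa2 arm. The table of the Nkx2.2 arm held the same 31 members among 37514 genes.

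Semaphorins are guidance cues that carry the sema domain, and they steer axons, migrating neurons and blood vessels. Members of class 3 are secreted, those of classes 4 to 6 span the membrane, and Sema7a is held by a lipid anchor. Plexins are their receptors and act inside the cell on small GTPases, whereas neuropilins are co-receptors that bind most secreted semaphorins and also members of the VEGF family. The floor plate, the ventral midline of the neural tube, is a known source of guidance cues for commissural axons, Sema3b among them.

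RNA was measured as FPKM (fragments per kilobase of transcript, scaled by sequencing depth), a level per length, so that levels of different genes can be compared within a table. Cells grew as a monolayer in N2B27 medium. Both genotypes of the Foxa2 arm received retinoic acid (RA), up to day 3.5 at most, and the Smoothened agonist SAG until they were collected, whereas undifferentiated cells received neither. Undifferentiated cells, day 1 and day 2 had 2 WT and 3 Foxa2-/- libraries each. Days 3.5, 4.5 and 5.5 had 3 of each genotype, and for days 6.5 and 7.5 there were 3 WT libraries and 2 of Foxa2-/- cells. The Nkx2.2 arm had 1 WT and 1 Nkx2.2-/- library at day 3.5 and at day 5.5, with RA and SAG for the first 3.5 days. From day 3.5 on, the RNA came from cells selected for the surface protein prominin on magnetic columns. The line is given as E14.5 for WT cells and as C57BL/6 for both mutants, so genotype and line cannot be told apart. The labels do not say whether replicates came from separate cultures, so p-values measure the spread between these libraries, which may be technical.

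Depth, estimated from the spacing of low values, was 33200000 to 38900000 fragments in the early libraries (up to day 2), 13400000 to 30900000 later and 9700000 to 12000000 in the Nkx2.2 arm. In the Foxa2 arm, Foxa2 stood at 25.5 to 100 FPKM in WT libraries from day 2 on and at no more than 0.266 FPKM in any Foxa2-/- library. Floor plate markers (9 genes, among them Shh, Corin and Ntn1) summed to 2373 to 2737 FPKM in WT and to 111 to 180 FPKM in Foxa2-/- cells at day 7.5. Neural progenitor markers (7 genes) summed to 763 to 1033 FPKM in WT and to 1313 to 1370 FPKM in Foxa2-/- cells on that day. Prom1, which encodes the protein used for the selection, was at 212 to 262 FPKM in WT and at 52.6 to 72.2 FPKM in Foxa2-/- cells at day 7.5. In such bulk samples fewer cells of a type and less RNA per cell cannot be told apart. Undifferentiated Foxa2-/- replicate 3 carries the source name of progenitor cells, against its title and stage, and was kept with the undifferentiated cells.

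Among the 31 members, 27 reached 1 FPKM in at least 2 libraries up to day 2 and 28 did so later, and these were tested. Sema3g, Sema6b and Plxnb3 stayed below that filter in both tables, and Plxna4 did so up to day 2. A call is an adjusted p under 0.05 from limma's moderated test, adjusted over all genes tested, and log2 differences are on the log2(FPKM + 1) scale, which understates changes of genes near 0.

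Promoter sequences were available from RefSeq for 26 of the members. Those of Nrp1, Nrp2 and Sema3e are shown because these 3 genes were called lower in Foxa2-/- cells at every time from day 2 to day 7.5, and that of Plxna2 because it was called higher from day 5.5 on. Each runs 5′ to 3′ on the plus strand of GRCm38.p6, from 250 bases before to 50 after the annotated start, at chr8:128358823-128359122, chr1:62703067-62703366, chr5:14025026-14025325 and chr1:194619579-194619878 in that order, and capitals mark GC boxes (GGGCGG on either strand).
Nrp1: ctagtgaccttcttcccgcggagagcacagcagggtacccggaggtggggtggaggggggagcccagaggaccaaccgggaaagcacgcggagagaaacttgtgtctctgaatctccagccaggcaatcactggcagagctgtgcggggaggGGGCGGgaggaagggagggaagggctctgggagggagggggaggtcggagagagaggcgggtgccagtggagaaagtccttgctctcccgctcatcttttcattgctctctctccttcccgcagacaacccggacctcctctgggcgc
Nrp2: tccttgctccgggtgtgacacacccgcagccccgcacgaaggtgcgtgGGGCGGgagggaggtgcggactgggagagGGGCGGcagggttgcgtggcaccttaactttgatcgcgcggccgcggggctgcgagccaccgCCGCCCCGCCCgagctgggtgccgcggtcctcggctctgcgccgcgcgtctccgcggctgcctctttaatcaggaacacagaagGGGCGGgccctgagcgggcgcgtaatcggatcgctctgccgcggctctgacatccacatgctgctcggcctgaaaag
Sema3e: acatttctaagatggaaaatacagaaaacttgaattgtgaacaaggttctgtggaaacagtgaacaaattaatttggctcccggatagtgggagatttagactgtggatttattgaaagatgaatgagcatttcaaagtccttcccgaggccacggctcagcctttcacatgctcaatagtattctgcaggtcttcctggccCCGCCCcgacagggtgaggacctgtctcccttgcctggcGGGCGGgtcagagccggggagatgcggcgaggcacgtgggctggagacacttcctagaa
Plxna2: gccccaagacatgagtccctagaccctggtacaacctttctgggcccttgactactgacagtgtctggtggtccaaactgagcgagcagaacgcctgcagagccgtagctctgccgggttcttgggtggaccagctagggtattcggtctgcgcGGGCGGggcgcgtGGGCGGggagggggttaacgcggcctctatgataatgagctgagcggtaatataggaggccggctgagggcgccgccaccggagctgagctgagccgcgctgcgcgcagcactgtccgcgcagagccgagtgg

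The Nrp2 promoter held 5 GC boxes and 37 CpG dinucleotides, the Nrp1 promoter 1 and 14, the Sema3e promoter 2 and 11, and the Plxna2 promoter 2 and 25. The GC box was in 27 of the 37 promoters listed for members and in 35.7% of all 32851 promoters. Read on both strands, the forkhead letters TGTTTAC were in 3.65% of all promoters, TATTTAC in 3.04% and TGTTTGC in 5.07%, and any of these forms in 11.2%. Among the promoters of members they were found in 1, that of Sema4d, as TATTTAC. The GLI letters TGGGTGGTC were in 0.253% of all promoters and in none of the members' 37. These counts describe letters in a short window and nothing about what binds there or elsewhere in the genes.

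Both neuropilin genes were lower in Foxa2-/- than in WT cells at every time from day 2 on, by 2.55-fold (Nrp1) and 3.44-fold (Nrp2) in mean FPKM on day 2 and by 12.7-fold and 9.27-fold on day 7.5. In WT cells they climbed to rank 1 (Nrp2) and 3 (Nrp1) of the 31 members by mean FPKM at day 7.5, while in Foxa2-/- cells they ranked 10 and 16.

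Nrp1 (ENSMUSG00000025810, chromosome 8, 128358604 to 128503363 on GRCm38) encodes a co-receptor of Sema3a and of VEGF. In undifferentiated WT cells it was at 0.455 and 0.714 FPKM, on day 1 at 2.05 and 1.88, and on day 2 at 5.44 and 5.67. In Foxa2-/- cells it was at 0.25, 0.574 and 0.558, then at 2.3, 2.52 and 2.34, and on day 2 at 1.62, 2.88 and 2.03. The genotypes overlapped in undifferentiated cells, the mutant was slightly above WT on day 1, and all mutant libraries were below WT on day 2, when the difference was -1.07 (SE 0.17, adjusted p = 0.00415). In the later table, WT libraries were at 14.9, 13.3 and 14.4 FPKM on day 3.5, 26.4, 15.4 and 20.5 on day 4.5 and 32.7, 36.5 and 36.6 on day 5.5. They were at 67.7, 43.8 and 36.4 on day 6.5 and at 58.9, 52.5 and 57.7 on day 7.5. Foxa2-/- libraries were at 1.1, 1.99 and 1.84 on day 3.5, 2.46, 4.03 and 4.71 on day 4.5, 3.14, 3.02 and 3.1 on day 5.5, 4.31 and 3.47 on day 6.5, and 3.46 and 5.39 on day 7.5. No mutant library reached the lowest WT library on any of these days. The log2 difference was -2.54 (SE 0.22, adjusted p = 1.13e-07) on day 3.5 and -3.42 (SE 0.24, adjusted p = 1.91e-09) on day 7.5.

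Nrp2 (ENSMUSG00000025969, chromosome 1, 62703285 to 62818695) encodes a co-receptor of Sema3f and of Sema3b. Up to day 2 it was at 2.11 and 1.89 FPKM in undifferentiated WT cells, at 0.964 and 0.88 on day 1 and at 8.47 and 6.3 on day 2. Foxa2-/- cells had 1.51, 1.17 and 1.38, then 1.28, 1.03 and 1.25, and on day 2 1.27, 3.12 and 2.05 FPKM. The rise between day 1 and day 2 was therefore seen in both WT libraries, and the mutant libraries of day 2 were all below them (log2 difference -1.44, SE 0.21, adjusted p = 0.0024). Later WT levels were 17.9, 15.4 and 16 FPKM on day 3.5, 21.4, 21.8 and 21.1 on day 4.5, 52.2, 71.6 and 71.6 on day 5.5, 117, 108 and 100 on day 6.5, and 116, 149 and 183 on day 7.5. Those of Foxa2-/- cells were 2.97, 3.75 and 2.99, then 4.04, 5.36 and 6.11, then 5.95, 6.25 and 7.16, then 10.4 and 12.9, and at day 7.5 13.5 and 18.7 FPKM. Nrp2 thus rose with time in both genotypes at different levels, by 3.09 in WT (SE 0.16, adjusted p = 5.92e-11) and by 2.00 in Foxa2-/- cells (SE 0.18, adjusted p = 1.57e-07) on the log2 scale between day 3.5 and day 7.5. The smaller rise in the mutant passed the interaction test (-1.08, SE 0.25, adjusted p = 0.00846), but not with a pseudocount of 0.1, nor without Foxa2-/- day 7.5 replicate 1, where the adjusted p reached at most 0.0697. The genotype differences of Nrp1 and Nrp2 from day 3.5 on stayed called under every alternative tried.

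**Figure D1:**
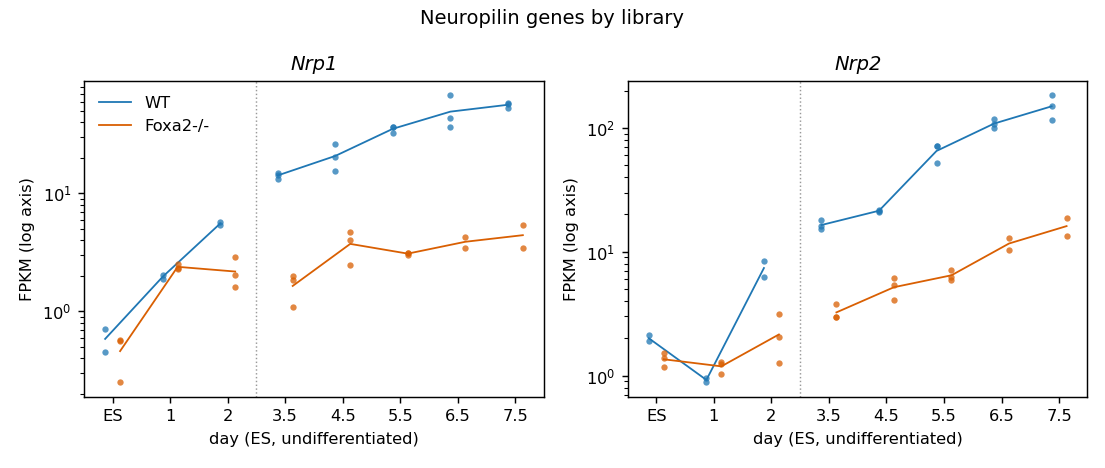
FPKM of Nrp1 and Nrp2 on a log axis against the day of differentiation, with 1 point per library, lines through group means, WT in blue and Foxa2-/- in orange, and a dotted line between the 2 tables. WT libraries at day 7.5 sit at 52.5 to 58.9 (Nrp1) and 116 to 183 FPKM (Nrp2), and Foxa2-/- libraries at 3.46 to 5.39 and 13.5 to 18.7 FPKM.

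Endothelial cells are known for high neuropilin levels, and endothelial markers (6 genes) summed to 3.97 to 16.8 FPKM in WT and to 3.8 to 8.25 FPKM in Foxa2-/- cells at day 7.5. Emcn was listed at 0 in every library of that day, Tie1 was at no more than 0.0795 FPKM and Pecam1 at no more than 0.711 FPKM. Cdh5 was at 1.15 to 10.5 FPKM in WT and 2.12 to 6.06 FPKM in the mutant, Tek at 1.65 to 4.02 and 1.1 to 1.75 FPKM, and Kdr at 1.15 to 1.96 and 0.0838 to 0.0984 FPKM. Of the 3 endothelial markers tested, 1, Kdr, was called lower in the mutant from day 4.5 to day 7.5, and 2, Kdr and Tek, rose in WT between days 3.5 and 7.5, and their part in the neuropilin result was not tested. The sum of the 9 floor plate markers moved with the neuropilins, from 420 to 497 FPKM on day 3.5 to 2373 to 2737 FPKM on day 7.5 in WT libraries and from 41.9 to 49.4 FPKM to 111 to 180 FPKM in Foxa2-/- libraries, and its part in the result was not tested.

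Among the secreted semaphorins, Sema3b, Sema3c and Sema3e were called higher in Foxa2-/- than in WT cells on day 1 and lower from day 4.5 on, Sema3e already from day 2. On day 2 all mutant libraries were below WT for all 3 genes, without a call for Sema3b and Sema3c. These 3 were the only members called on day 1, 3 of 27 against a background of 1.88% of all genes tested (1.2% higher, 0.68% lower). Over all members tested the median log2 difference on day 1 was 0.20, against 0.09 over all genes.

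Sema3e (ENSMUSG00000063531, chromosome 5, 14025276 to 14256689) encodes a ligand that binds plexin D1 directly, without a neuropilin. On day 1 it was at 6.15 and 5.74 FPKM in WT and at 15.6, 15.2 and 16.8 FPKM in Foxa2-/- cells (log2 difference 1.28, SE 0.23, adjusted p = 0.0181). On day 2 WT was at 5.11 and 2.58 and the mutant at 0.62, 1.58 and 0.985 FPKM (-1.21, SE 0.23, adjusted p = 0.0142). The order of the genotypes was reversed within a day, with no overlap at either time, and in the mutant the mean fell from 15.9 ± 0.852 to 1.06 ± 0.484 FPKM (SD, n = 3). The change between days 1 and 2 differed between genotypes by -2.49 (SE 0.33, adjusted p = 0.00474), a call that held under every alternative, in a comparison chosen after seeing the data. Undifferentiated cells already differed in the direction of day 1, with 3.26 and 2.26 FPKM in WT and 4.14, 4.42 and 4.86 FPKM in Foxa2-/- cells, which was not called. On day 3.5 WT libraries were at 1.4, 1.58 and 1.9 and mutant libraries at 0.0803, 0.204 and 0.224 FPKM. From day 4.5 to day 5.5 mutant libraries stayed between 0.0273 and 0.142 FPKM, and WT libraries were between 1.21 and 2.82 FPKM. At day 7.5 WT libraries were at 7.54, 7.3 and 7.62 FPKM and mutant libraries at 1.03 and 0.301 FPKM. Sema3e was thus at its lowest in the mutant on days 4.5 and 5.5 and rose in WT cells toward day 7.5, with a difference of -2.38 (SE 0.19, adjusted p = 7.69e-09) at the end.

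Sema3c (ENSMUSG00000028780, chromosome 5), whose product signals through both neuropilins, was at 5.67 and 6.87 FPKM in WT and 24, 19.6 and 18.3 FPKM in Foxa2-/- cells on day 1 (1.57, adjusted p = 0.0381). WT cells stood at 21.2 and 21.3 FPKM on day 2, when mutant libraries were at 5.73, 15.8 and 7.83 FPKM. The mutant on day 1 was thus close to WT on day 2, and on day 2 all mutant libraries were below WT without a call. On day 3.5 they were again below WT without a call, at 4.92, 13.2 and 16.1 FPKM against 19.2, 16.8 and 19.8 FPKM. From day 4.5 on the difference was called, with 10.2 to 20.4 FPKM in WT and 1.76 to 5.24 FPKM in the mutant on day 4.5, and 15.9 to 19.7 against 2.82 and 4 FPKM on day 7.5 (-2.11, SE 0.40, adjusted p = 0.000516). Sema3b (ENSMUSG00000057969, chromosome 9) was at 0.655 and 1.27 FPKM in WT and 2.47, 3.08 and 3.41 FPKM in the mutant on day 1 (1.03, SE 0.18, adjusted p = 0.0159). On day 2 it was at 5.12 and 3.79 FPKM in WT and at 2.81, 2.26 and 2.97 FPKM in the mutant, and on day 3.5 the groups overlapped. On day 7.5 it was at 14, 10 and 9.34 FPKM in WT and at 1.76 and 2.88 FPKM in the mutant (-1.87, SE 0.46, adjusted p = 0.0048). No mutant library reached a WT one on that day, and the call was lost without Foxa2-/- replicate 1 (adjusted p = 0.076). Its calls of days 4.5 and 6.5 (-1.49 and -1.48) were lost without WT replicate 1 or Foxa2-/- replicate 2 or 3 on day 4.5, and without WT replicate 3 or Foxa2-/- replicate 1 on day 6.5. None of the 3 calls of day 1 held with a pseudocount of 0.1, and leaving out 1 library at a time left 0 to 1 of them.

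Sema3d and Sema5a were, like the neuropilins, called lower in the mutant over part of the course. Sema5a (ENSMUSG00000022231, chromosome 15), a transmembrane semaphorin with thrombospondin repeats, was at 0.382 and 0.394 FPKM in WT on day 1 and at 1.98 and 1.17 FPKM on day 2, whereas Foxa2-/- cells had 0.334 to 0.43 and then 0.189, 0.591 and 0.244 FPKM. It was at 2.02, 2.41 and 2.59 FPKM in WT and 0.441, 0.44 and 0.597 FPKM in the mutant on day 3.5 (-1.16, SE 0.18, adjusted p = 0.000283). Mutant libraries then stayed at 0.419 to 0.642 FPKM through day 5.5, were at 0.993 and 0.873 FPKM on day 6.5, and reached 1.6 and 2.61 FPKM on day 7.5, against 2.59, 2.99 and 2.62 FPKM in WT. The difference was called from day 2 to day 6.5 and not on day 7.5, where the groups overlapped. The call of day 2 was lost in a fit of that day's libraries alone. The rise in the mutant between day 3.5 and day 7.5 was 1.04 (SE 0.20, adjusted p = 0.000669). The interaction over these days was at the edge (0.88, SE 0.27, adjusted p = 0.0488) and was lost under 15 of 19 alternatives. Sema3d (ENSMUSG00000040254, chromosome 5), a secreted semaphorin, was at 8.01, 7.28 and 5.39 FPKM in WT and 2.19, 3.02 and 3.24 FPKM in the mutant on day 3.5, and at 2.83, 1.8 and 1.93 against 0.558 and 0.522 FPKM on day 7.5. It fell over these days in both genotypes, by 1.31 in WT and by 1.30 in Foxa2-/- cells on the log2 scale (adjusted p = 0.000573 and 0.00354). Its genotype difference was called on days 2, 3.5, 5.5 and 7.5. The call of day 3.5 was lost without any 1 of its 6 libraries, that of day 5.5 without WT or Foxa2-/- replicate 2 or 3, and that of day 7.5 without WT replicate 1 or Foxa2-/- replicate 1 or 2.

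Sema3f (ENSMUSG00000034684, chromosome 9), a secreted ligand of Nrp2, went the other way. On day 3.5 it was at 0.868, 1.75 and 2.59 FPKM in WT and 3.09, 7.6 and 4.74 FPKM in Foxa2-/- cells (1.15, SE 0.26, adjusted p = 0.0146), and on day 4.5 at 2.24, 2.75 and 1.27 against 7.19, 5.72 and 4.78 FPKM (1.18, SE 0.26, adjusted p = 0.00663). All mutant libraries were above WT on both days and on day 5.5, when the means were 3.2 in the mutant and 1.79 FPKM in WT. The call of day 3.5 was lost without WT replicate 1 and without Foxa2-/- replicate 2, and from day 5.5 on the gene was not called. Sema3a, the best known repulsive ligand of Nrp1, was not called between genotypes at any time and was at 0.235 to 2.94 FPKM in all libraries from day 3.5 on.

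**Figure D2:**
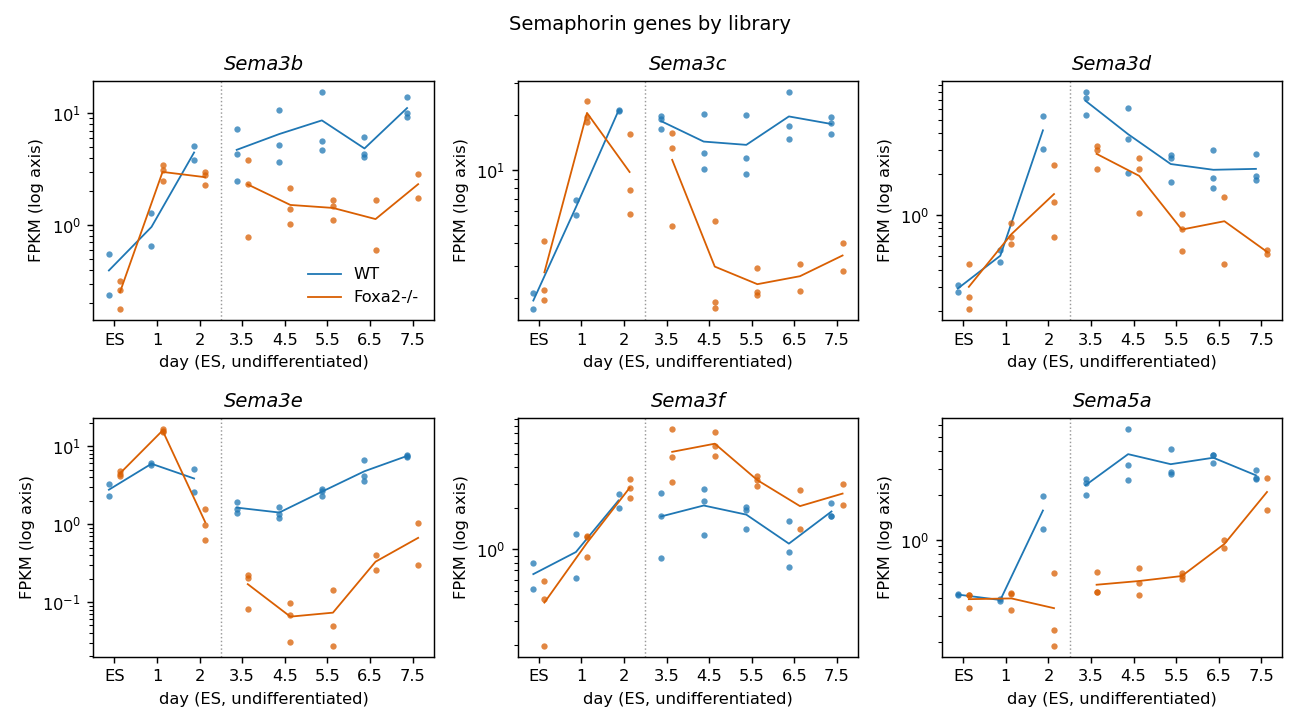
FPKM of 6 semaphorin genes on log axes against the day, with 1 point per library, lines through group means, WT in blue and Foxa2-/- in orange, and a dotted line between the 2 tables. Sema3b, Sema3c and Sema3e lie higher in the mutant on day 1 and lower on day 2 and from day 4.5 on. Sema5a lies lower from day 2 to day 6.5, and Sema3f lies higher from day 3.5 to day 5.5.

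Of the 8 plexins tested, 0 were called between genotypes on days 3.5 and 4.5 (background 3.38% and 7.5% of all genes), 1 on days 5.5 and 6.5 (14.3% and 24.9%) and 3 on day 7.5 (25.8%). Plxna2 (ENSMUSG00000026640, chromosome 1, 194618218 to 194816869), a receptor of secreted semaphorins with neuropilins and of Sema6a without them, was the plexin with the longest lasting difference. On day 3.5 it was at 26.8, 25.4 and 22 FPKM in WT and 16.3, 24.2 and 26.9 FPKM in the mutant, so that the groups overlapped. On day 4.5 it was at 22.4, 17.9 and 27.8 FPKM in WT and 30, 31.3 and 35.5 FPKM in the mutant, apart but not called (0.51, SE 0.17, adjusted p = 0.0709). On day 5.5 it was at 15, 18.1 and 18.5 FPKM in WT and 35.1, 47.3 and 47.1 FPKM in the mutant (1.27, SE 0.17, adjusted p = 1.25e-05). On day 7.5 WT libraries were at 13.6, 10.7 and 12.1 and mutant libraries at 24.9 and 29.7 FPKM (1.11, SE 0.19, adjusted p = 0.000161). Plxna2 fell in WT cells between days 3.5 and 7.5 (-0.97, SE 0.17, adjusted p = 7.49e-05), and the change differed between genotypes by 1.27 (SE 0.25, adjusted p = 0.00309), calls that held under every alternative.

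Plxnc1 (ENSMUSG00000074785, chromosome 10), the receptor of Sema7a, was at 4.2, 3.9 and 3.55 FPKM in WT and 10.9 and 12.1 FPKM in Foxa2-/- cells on day 7.5 (1.35, SE 0.23, adjusted p = 0.000189), and was not called before, although the groups were also apart on day 5.5, with 6.26, 5.66 and 6.34 FPKM in WT and 7.9, 8.15 and 7.01 FPKM in the mutant. Its interaction with time (1.07, SE 0.31, adjusted p = 0.0402) was lost under 11 of 19 alternatives. Without a call, all its mutant libraries were also above WT in undifferentiated cells and on day 1. Plxnb2 (ENSMUSG00000036606, chromosome 15), a receptor of class 4 semaphorins such as Sema4c, had the highest mean FPKM of the plexins in both genotypes of the Foxa2 arm from day 2 on. On day 7.5 it was at 111 FPKM or more in each WT library and at 48.1 and 79.9 FPKM in the mutant (-1.03, SE 0.25, adjusted p = 0.00404), and without Foxa2-/- replicate 1 the adjusted p was 0.146. It rose between day 3.5 and day 7.5 in WT by 1.75 (SE 0.22, adjusted p = 2.35e-06) and in the mutant by 0.85 (SE 0.25, adjusted p = 0.0127), and the interaction was not called. The mutant rise was lost without Foxa2-/- day 7.5 replicate 2 or day 3.5 replicate 3.

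The other plexins were not called between genotypes at any time. From day 3.5 on Plxna1 was between 15.1 and 48.2 FPKM, Plxna3 between 14.7 and 50.4, Plxnb1 between 15 and 46.5, Plxna4 between 0.538 and 5.83 and Plxnd1, the receptor of Sema3e, between 0.596 and 3.89. For Plxna4 all mutant libraries were below WT from day 3.5 to day 6.5, with means of 0.773 against 2.25 FPKM on day 3.5 and 1.75 against 3.37 FPKM on day 4.5. For Plxna3 they were all above WT on day 7.5. Earlier, all mutant libraries were above WT for Plxnb1 on day 1 and below WT for Plxna1 and Plxnb1 on day 2. Plxnb3 did not exceed 0.544 FPKM in any library of the Foxa2 arm. Exons of Plxna1, Plxna4 and Plxnb1, and of Sema4c among the semaphorins, overlap those of a gene on the opposite strand, and whether the authors' counting used strand is not given in the sources used here.

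Sema6a, Sema4c and Sema4a, which span the membrane, were each called higher in the mutant at 1 late time. Sema6a (ENSMUSG00000019647, chromosome 18), a ligand of plexins A2 and A4, was at 18.2, 36.3 and 28.5 FPKM in WT and 38.1 and 63.6 FPKM in the mutant on day 7.5 (0.86, SE 0.27, adjusted p = 0.0246). It rose from day 3.5 in both genotypes, by 1.72 in WT and 3.10 in the mutant, and the interaction was 1.38 (SE 0.37, adjusted p = 0.0243). The call of day 7.5 was lost without Foxa2-/- replicate 2 or WT replicate 1, and the interaction without these or without WT day 3.5 replicate 1 or 2. Without a call, Sema6a was already higher in undifferentiated Foxa2-/- cells, at 6.19, 7.15 and 6.58 FPKM against 3.05 and 1.82 FPKM in WT. All its mutant libraries were also above WT on days 1, 5.5 and 6.5. On day 3.5 they were all below WT, with means of 4.88 against 7.45 FPKM. Sema4c (ENSMUSG00000026121, chromosome 1) was at 25.2, 20.4 and 33.7 FPKM in WT and 36.2 and 50.5 FPKM in the mutant on day 6.5 (0.70, SE 0.21, adjusted p = 0.0179), a call that was lost without Foxa2-/- replicate 2 or WT replicate 2. Sema4a (ENSMUSG00000028064, chromosome 3) rested on 1 library on day 7.5, with 0.945 and 4.97 FPKM in the mutant against 0.551, 0.872 and 0.829 FPKM in WT. Its call (0.97, SE 0.32, adjusted p = 0.0316) was lost without Foxa2-/- replicate 2, where the difference was 0.16 (adjusted p = 0.735), and without any 1 WT library.

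Sema5b (ENSMUSG00000052133, chromosome 16), a transmembrane semaphorin that repels axons in the retina, was at 4.98 and 5.1 FPKM in WT and 9.81, 10 and 10.9 FPKM in the mutant on day 2 (0.90, SE 0.21, adjusted p = 0.0366). From day 3.5 on the mutant means were 1.30 to 1.92 times those of WT, without a call, and the groups were apart on days 4.5, 5.5 and 7.5. Sema4d (ENSMUSG00000021451, chromosome 13), the ligand of plexin B1, was lower on day 2, with 6.02 and 6.95 FPKM in WT and 3.11, 4.61 and 3.84 FPKM in the mutant (-0.63, SE 0.14, adjusted p = 0.0275). Without a call, all its mutant libraries were below WT on days 1, 4.5 and 5.5 too, and above WT in undifferentiated cells. Sema4b, Sema4f, Sema4g, Sema6c, Sema6d and Sema7a were not called between genotypes at any time. Of these Sema6c was the highest from day 3.5 on, at 7.88 to 50.7 FPKM.

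**Figure D3:**
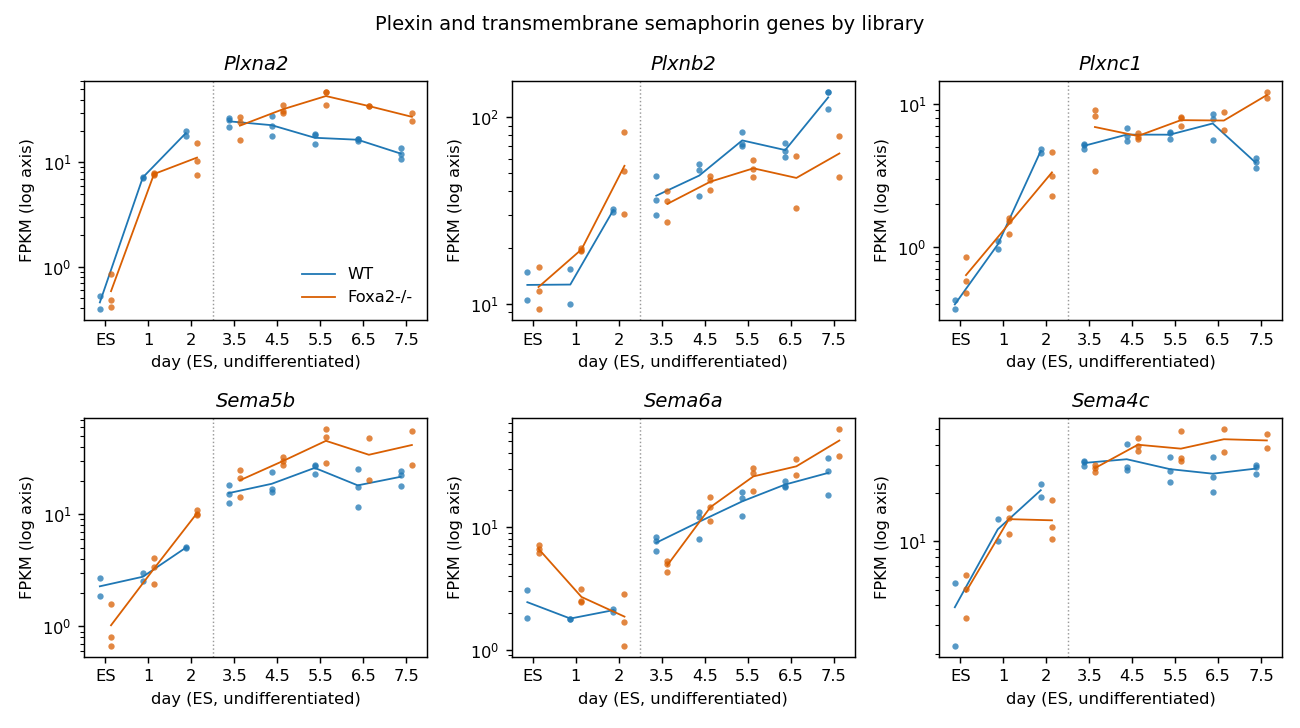
FPKM of 3 plexin and 3 transmembrane semaphorin genes on log axes against the day, with 1 point per library, lines through group means, WT in blue and Foxa2-/- in orange, and a dotted line between the 2 tables. Plxna2 lies higher in the mutant without overlap on day 1 and from day 4.5 on. Plxnc1 does so in undifferentiated cells and on days 1, 5.5 and 7.5, and WT Plxnb2 is at 111 FPKM or more on day 7.5.

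In the count over all members, none of 27 was called in undifferentiated cells by limma, against 0.377% of all genes (0.079% higher, 0.298% lower). An unadjusted p under 0.05 was found for 5 of these 27 and for 833 of all 16465 genes tested, a larger share among the members. On day 2, 7 of 27 were called (1 higher, 6 lower; background 5.31%, of which 1.6% higher and 3.72% lower), with a median of -0.44 against -0.02 over all genes. Day 2 rested on few libraries. Foxa2-/- replicates 1 and 3 of that day had lower values for longer transcripts (slopes of log2 level on log2 length of -0.163 and -0.0521, against 0.0352 in replicate 2), leaving replicate 2 out raised the count to 15, and leaving out both others lowered it to 1. With the length trend removed it was 7, and in a fit of the 5 libraries of that day alone it was 0. With replicate 2 as the lone mutant library, assumed to vary like the other groups, the 1 member of these 7 still called was Nrp2. WT libraries mattered as well, since Nrp2 and Sema3e were not called without WT replicate 1, Nrp1 without WT replicate 2, Sema3d without WT replicate 1, and Sema4d and Sema5b without either. Leaving out Foxa2-/- replicate 3 alone ended the calls of Sema3e, Sema3d, Sema4d and Sema5b, and leaving out replicate 1 alone those of the last 3. The call of Sema5a, like all others of day 2, was lost in the fit of the 5 libraries alone.

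From day 3.5 on the calls were mostly lower in the mutant early and less one-sided at the end. The calls over all genes moved the same way. On day 3.5, 6 of 28 members were called (1 higher, 5 lower; background 3.38%, of which 0.677% higher and 2.7% lower). On day 4.5 it was 7 (1 higher, 6 lower; background 7.5%, of which 1.69% higher and 5.82% lower), and on day 5.5 it was 8 (1 higher, 7 lower; background 14.3%, of which 4.53% higher and 9.73% lower). On day 6.5, 8 were called (2 higher, 6 lower; background 24.9%, of which 13% higher and 11.9% lower), and on day 7.5, 11 (4 higher, 7 lower; background 25.8%, of which 13.6% higher and 12.1% lower). The members' share was thus above the background on days 3.5 to 5.5, at 21.4%, 25% and 28.6%, close to it on day 6.5 at 28.6%, and above it on day 7.5 at 39.3%. The members' median stayed near that of all genes from day 4.5 on, between -0.19 and -0.03 against 0.00 to 0.07. A total of 29 of the 40 calls of named members from day 3.5 on held under every alternative. The comparisons of one table share the estimate of spread, and each has its own libraries.

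**Figure D4:**
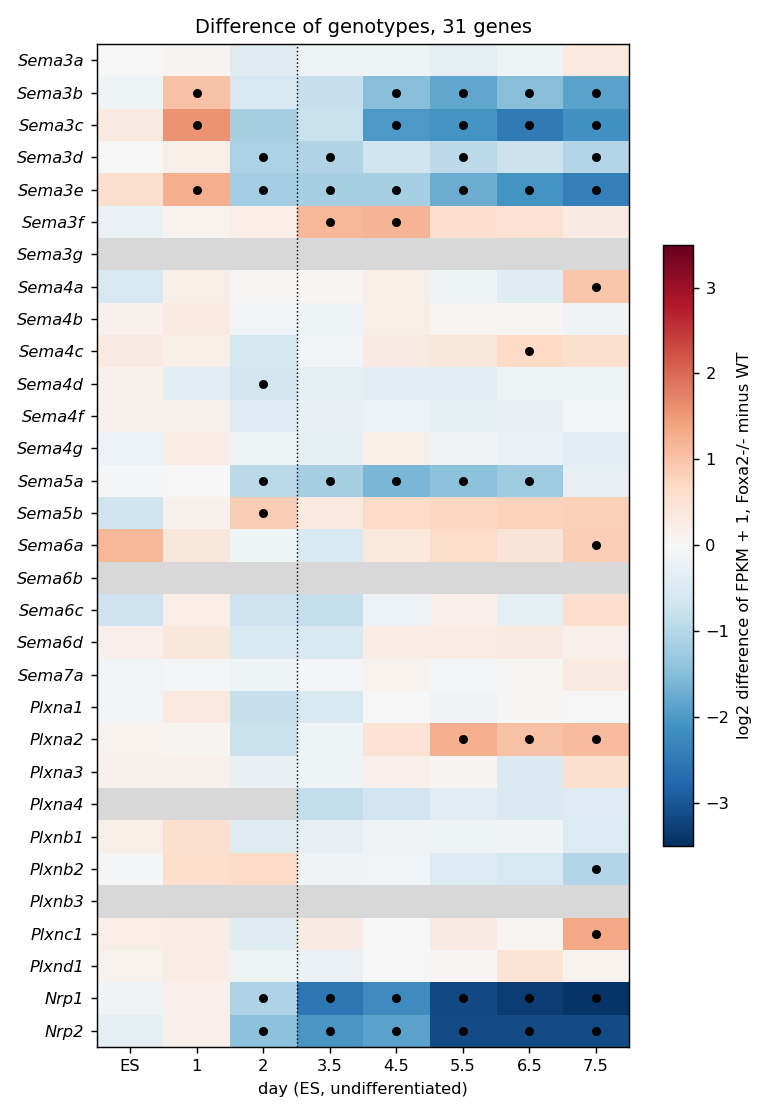
Difference of Foxa2-/- minus WT in log2(FPKM + 1) for the 31 members (rows) at each time (columns), red higher and blue lower in the mutant, grey not tested, with black dots for calls (adjusted p under 0.05). Nrp1 and Nrp2 are blue from day 2 on and reach -3.42 and -3.13 on day 7.5, and Sema3e turns from 1.28 on day 1 to -1.21 on day 2.

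Differentiation itself moved most members. Between undifferentiated cells and day 2, 21 of 27 were called in WT (20 higher, 1 lower; background 33.9%, of which 19.1% higher and 14.8% lower), with a median change of 1.20 against 0.11 over all genes. In WT the largest rise was that of Plxna2, from 0.392 and 0.519 to 18 and 20.1 FPKM (3.78, SE 0.24, adjusted p = 6.07e-07), and all 7 tested plexins rose. Sema4a fell, from 2.89 and 3.45 to 0.231 and 0.962 FPKM (-1.42, SE 0.23, adjusted p = 0.000653). In Foxa2-/- cells 22 of 27 were called (17 higher, 5 lower; background 54.6%, of which 31.4% higher and 23.2% lower), the lower ones being Sema3e, Sema4a, Sema4b, Sema4d and Sema6a. The interaction was called for 2 (background 1.01%, of which 0.261% higher and 0.747% lower), Sema5b (1.61, SE 0.30, adjusted p = 0.0303) and Sema3e (-1.76, SE 0.33, adjusted p = 0.0303), and leaving out any of several libraries, WT undifferentiated replicates 1 and 2 among them, ended both calls. Between days 1 and 2 the interaction was called for 5 members, all lower (background 1.38%, of which 0.121% higher and 1.26% lower), namely Sema3c (-2.72), Sema3e (-2.49), Nrp2 (-1.63), Sema3b (-1.60) and Nrp1 (-1.26). The count was 10 without Foxa2-/- day 2 replicate 2, and 1 without WT day 1 or day 2 replicate 1. This comparison of days 1 and 2 was chosen after seeing the data, so its calls are no independent support for the pattern.

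Between days 3.5 and 7.5, 15 of 28 members were called in WT (12 higher, 3 lower; background 46.8%, of which 24.5% higher and 22.4% lower) and 20 in Foxa2-/- cells (18 higher, 2 lower; background 32.1%, of which 18.7% higher and 13.4% lower). In the mutant the count fell to 7 without day 7.5 replicate 2 and to 13 without day 3.5 replicate 3, and in a fit of the 2 groups alone it was 4. Sema4g, a transmembrane semaphorin, rose in both genotypes, from 3.3 to 4.28 FPKM to 17.7 to 21.4 FPKM in WT (2.12, SE 0.26, adjusted p = 1.71e-06) and from 2.42 to 2.93 FPKM to 11.9 and 18.2 FPKM in the mutant (2.08, SE 0.29, adjusted p = 2.99e-05). Sema3c fell in the mutant, from 4.92, 13.2 and 16.1 to 2.82 and 4 FPKM (-1.37, SE 0.40, adjusted p = 0.0136), a call lost without day 3.5 replicate 3 or day 7.5 replicate 1 or 2, and its interaction was not called. The interaction was called for 6 members (4 higher, 2 lower; background 7.42%, of which 3.71% higher and 3.71% lower), namely Sema6a, Plxna2, Plxnc1 and Sema5a, whose change was more positive in the mutant, and Sema3e and Nrp2, whose change was less positive. For Sema3e (-1.22, adjusted p = 0.00377) the call was lost with a pseudocount of 0.1 (adjusted p = 0.449), and its mean rose from 1.62 to 7.49 FPKM in WT and from 0.169 to 0.666 FPKM in the mutant. The count was 3 without WT day 3.5 replicate 1 or 2 or WT day 7.5 replicate 1.

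Genes that act with these families were read as a list, together with Plxdc1 and Plxdc2, which were listed for a plexin-like domain only. Of its 47 genes, 40 were tested up to day 2 and 43 later. On day 7.5, 6 were higher and 5 lower in the mutant, a share of 25.6% against the background of 25.8%. Plxdc2, named for a domain like that of plexins, was at 96 ± 16.9 FPKM in WT (SD, n = 3) and 3.51 ± 1.53 in the mutant (SD, n = 2), a difference of -4.46 (SE 0.38, adjusted p = 2.89e-08). Nrcam, an adhesion molecule found in neuropilin complexes, was at 19.6 ± 2.87 FPKM in the mutant (SD, n = 2), below WT by a log2 difference of -2.72 (adjusted p = 8.2e-07). Sh3bp1, a Rac GAP that binds plexins, differed by -1.94, and Kdr, a VEGF receptor that pairs with neuropilins, by -1.20 at WT levels of 1.53 FPKM. Among those higher in the mutant were Dpysl5, a relative of the semaphorin effector CRMP2 (1.35), Pgf, a VEGF relative that binds neuropilins (1.29), and Rnd3 (1.06). On day 3.5 only Itgb1, the integrin subunit that serves Sema7a, was called (-0.59, adjusted p = 0.0418), against a background of 3.38% of all genes. On day 5.5 1 was higher and 6 were lower, a share of 16.3% against the background of 14.3%. Of the 40 tested up to day 2, 4 were called on day 1, all higher in the mutant, a share of 10% against a background of 1.88%. On day 2 4 were called (1 higher, 3 lower), a share of 10% against a background of 5.31%. Among them Flt1 and Flt4, 2 further VEGF receptors, were lower in the mutant on day 2 (-1.09 and -1.59). Flt1 was higher on day 1 (0.80), as was Sema3e, and the other called genes of these days are not named here. Neuron markers (7 genes) summed to 186 to 245 FPKM in WT and to 285 to 455 FPKM in the mutant on day 7.5, and motor neuron markers (7 genes) to 9.48 to 28.5 and 52.7 to 70.5 FPKM. Their part in the differences of the members was not tested.

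In the Nkx2.2 arm there was 1 library per group and no test was made. Nkx2-2 itself was at 19.6 and 28.7 FPKM in WT and at 1.34 and 3.38 FPKM in the mutant on days 3.5 and 5.5, while Foxa2 was at 171 and 259 against 160 and 240 FPKM. Of 27 members at 1 FPKM or more in a library, 2 were past 2-fold in FPKM + 1 on day 3.5 (background 4.63%, of which 1.82% higher and 2.81% lower), both lower. They were Sema5a, at 9.67 in WT and 3.7 FPKM in the mutant (-1.18), and Nrp2, at 17.6 and 8.01 FPKM (-1.05). On day 5.5 1 was past 2-fold on that scale (background 4.48%, of which 1.61% higher and 2.87% lower), Sema3a, which was higher in the mutant at 4.77 against 0.991 FPKM (1.53). Nrp2 was at 46.4 in WT and 27.3 FPKM in the mutant on that day (-0.74), and Nrp1 at 24 and 16 FPKM (-0.56) after 7.77 and 7.67 FPKM on day 3.5. Sema3e was at 5.59 and 5.66 FPKM on day 3.5 and at 3.98 and 1.94 FPKM on day 5.5 (-0.76). Plxnd1 was at 6.21 in WT and 2.96 FPKM in the mutant on day 5.5 (-0.86). Plxnb1, at 60.4 and 95.1 FPKM (0.65), and Sema5b, at 26 and 41.2 FPKM (0.64), were higher in the mutant on that day. Floor plate markers summed to 603 FPKM in WT and 673 in the mutant on day 3.5, and to 1911 and 1616 FPKM on day 5.5. The titles place the later pair at day 5.5 whereas their stage label reads 3.5 days, and the titles were followed.

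**Figure D5:**
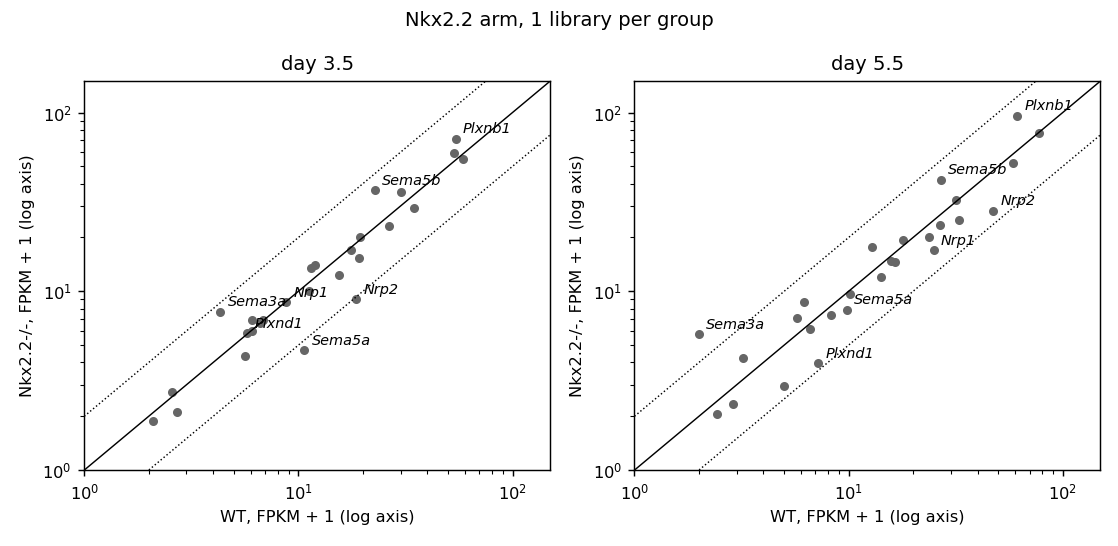
FPKM + 1 of the tested members in Nkx2.2-/- against WT cells on log axes, 1 library per axis, on day 3.5 (left) and day 5.5 (right), with a solid line of equality and dotted lines at 2-fold. Sema5a and Nrp2 lie below the lower dotted line on day 3.5, and Sema3a lies above the upper one on day 5.5.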

How the data were processed

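RNA was sequenced after poly-A selection with a stranded kit, per the labels' protocols. The authors deposited FPKM values in 3 tables, and FPKM is already scaled to length and mapped fragments. The submitters' processing notes name TopHat2 2.0.4, Cufflinks 2.1.1, HTSeq 0.6.1, CASAVA, bcl2fastq 1.8.3 and limma, with the build GRCm38 (mm10). The tool behind the values, the annotation and the use of strand are not given in the sources used here. A total of 3 columns of the later table matched no sample and were not used.

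Each table was analysed on its own with limma 3.58.1 in R 4.3.3, on log2(FPKM + 1) of genes reaching an FPKM of 1 in 2 or more libraries (16465 up to day 2, 17124 later), with 1 mean per group over all libraries of the table, a mean-variance trend, two-sided tests and Benjamini-Hochberg adjustment over all genes tested. In the Nkx2.2 arm, 15141 genes that reached an FPKM of 1 in any library were compared without a test, and past 2-fold means a log2 difference of at least 1 in size. The script was tested on simulated data. Positions come from GENCODE M21, promoters from RefSeq (GRCm38.p6), and figures and tables were made with matplotlib 3.10.9 and pandas 2.3.3 (Python 3.11.15, numpy 2.4.6). FPKM levels were not compared between tables, and depth, read from the spacing of low values, is an estimate, so no counting intervals are given.

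The members and gene lists were chosen with earlier results of these data known. Members called between genotypes or in an interaction, with a group mean of 1 FPKM or more, are given with values, and the others by ranges. Of the marker lists (floor plate, p3 progenitor, neural progenitor, neuron, motor neuron, undifferentiated ES cell, endothelium, endoderm, mesenchyme and oligodendrocyte lineage), Tubb3 and Slc18a3 were not used here. At day 7.5 the sums of the lists not given with the results were 28 to 33.6 FPKM (p3, 5 genes), 11.7 to 13.6 (undifferentiated), 101 to 141 (endoderm), 21.5 to 34.3 (mesenchyme) and 9.76 to 10.9 (oligodendrocyte lineage) in WT. In Foxa2-/- cells they were 86.7 to 146 (p3), 15.4 to 26.6 (undifferentiated), 166 to 261 (endoderm), 20 to 38.3 (mesenchyme) and 24.8 to 50.1 (oligodendrocyte lineage). Alternatives were quantile normalization, median-of-ratios factors, a pseudocount of 0.1, all genes without the filter, removal of a length trend, isolated zeros set to missing, a fit of the compared groups alone, a replicate block and leaving out libraries.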

Additional observations from a re-analysis of the deposited data

Results flagged for a closer look

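Between day 1 and day 2 the change differed between Foxa2-/- and WT cells for Sema3c (-2.72), Sema3e (-2.49), Nrp2 (-1.63), Sema3b (-1.60) and Nrp1 (-1.26 on the log2 scale), as tested by the interaction term. That of Sema3e held under every alternative, and the other 4 were each lost under 5 to 14 of 19. The comparison of days 1 and 2 was chosen after seeing the data, for all 5 genes.

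From undifferentiated cells to day 2 the change differed for Sema5b (1.61) and Sema3e (-1.76). From day 3.5 to day 7.5 it differed for Sema6a (1.38), Plxna2 (1.27), Plxnc1 (1.07), Sema5a (0.88), Nrp2 (-1.08) and Sema3e (-1.22). Of these 8 the call of Plxna2 held under every alternative.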

How the results depend on the processing

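No direction was reversed under any alternative. Of 40 genotype calls of members from day 3.5 on, 29 held under every alternative, against 29 of 50 over all times and 2 of 13 interaction calls. None of the genotype calls of days 1 and 2 thus held under every alternative, so the early table is the weaker one. FPKM without counts gives no counting error, and depth is an estimate. With the libraries of the compared groups alone, members called fell from 7 to 0 on day 2, from 5 to 1 in the interaction of days 1 and 2, from 2 to 0 in that of undifferentiated cells and day 2, and from 20 to 4 between days 3.5 and 7.5 in Foxa2-/- cells. A pseudocount of 0.1 left 0 on day 1, 2 in the interaction of days 1 and 2 and 0 in that of undifferentiated cells and day 2, and in the Nkx2.2 arm 2 members instead of 1 were past 2-fold on day 5.5. In undifferentiated cells 1 member instead of 0 was called with the length trend removed, isolated zeros set to missing, quantile normalization or median-of-ratios factors. Quantile normalization left 2 and 1 in the interactions of days 1 and 2 and of undifferentiated cells and day 2. Without both Foxa2-/- day 2 libraries with a steep length trend, 1 member was called on day 2, and 2 and 0 in these interactions. The cause of these changes was not tested.

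The labels do not say what a replicate number shares, and same-numbered WT and Foxa2-/- libraries had correlations of their deviations from -0.243 to 0.36, so the numbers were not read as pairs. With a replicate block, 0 members were called on day 1, 4 on day 2, 3 in the interaction of days 1 and 2 and 0 in that of undifferentiated cells and day 2. On days 3.5 to 7.5 it called 7, 7, 9, 8 and 13.

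Leaving out 1 library at a time gave 0 to 0 calls in undifferentiated cells, 0 to 1 on day 1, 1 to 15 on day 2, 4 to 6 on day 3.5, 6 to 8 on day 4.5, 7 to 8 on day 5.5, 7 to 10 on day 6.5 and 8 to 10 on day 7.5. Over time it gave 16 to 20 in WT and 19 to 21 in Foxa2-/- cells up to day 2, and 12 to 14 and 7 to 20 between days 3.5 and 7.5. For the interactions it gave 1 to 10 (days 1 and 2), 0 to 12 (undifferentiated cells and day 2, the highest without Foxa2-/- day 2 replicate 2) and 3 to 6 (days 3.5 and 7.5).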
